A study of Rattus norvegicus with 6 samples.

Results

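Translation initiation factors (eIF) and elongation factors (eEF) are the proteins that place a ribosome at the start of a coding sequence and move it along the mRNA. The transcripts described here are the 64 rows, of 33508 in the gene count table, whose gene name starts with Eif and a digit from 1 to 6 or with Eef and 1 or 2. The name rule uses no measured value, although earlier results of these data were known when it was chosen. Besides the factors, the names take in the kinases that phosphorylate eIF2, the eIF4E-binding proteins, the eEF2 kinase and methyltransferases that modify eEF1A and eEF2.

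RNA-seq was performed on bone marrow mesenchymal stem cells (BMSCs) of 2-month-old male Sprague–Dawley rats. The cells carried either a lentivirus that overexpresses FNDC5, the precursor of irisin (BMSCs-OE-FNDC5, 3 libraries), or a blank lentivirus (BMSCs-OE-NC, 3 libraries). Cells of both groups were passaged 3 times, received virus at a multiplicity of infection of 10 over 72 h, and then spent 24 h in hypoxia and serum deprivation (H/SD), without glucose or serum, at 1% O2, 94% N2 and 5% CO2. The comparison is therefore between 2 stressed groups, and cells outside H/SD were not analysed here. The promoter of the vectors is not given in the sources used here, and the cells were used as transduced cultures with no clone named. The labels call the libraries biological replicates without naming separate rats or transductions, so p-values measure the spread between these libraries.

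The BMSCs-OE-NC libraries held 17430287 to 17965722 counts, of which 17 to 25 fell on Fndc5 itself. The BMSCs-OE-FNDC5 libraries held 16640635 to 17229490, with 64195 to 65589 on Fndc5. The BMSC markers Cd44, Thy1, Nt5e, Eng and Itgb1 had counts in every library. Of the blood cell markers, Ptprc and Adgre1 were at 0, Cd34 had at most 1 count and Csf1r at most 6. One extraction text in the labels names retinas, but Nrl, Opn1sw, Pde6b and Rcvrn were at 0 in all 6 libraries. Thy1 rose, with a log2 fold change between the groups (log2FC) of 1.29, and Nt5e and Itgb1 fell (−1.31 and −1.02). Their part in the results below was not tested.

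Initiation starts when eIF2, loaded with GTP and the initiator tRNA, joins the small ribosomal subunit with eIF1, eIF1A, eIF3 and eIF5. The complex reaches a capped mRNA through eIF4F, and eIF2B recharges eIF2 with GTP after each round unless stress kinases have phosphorylated the eIF2 alpha subunit. In elongation, eEF1A brings aminoacyl-tRNA to the ribosome, eEF1B recharges eEF1A, and eEF2 moves the ribosome by a codon. Several of these factors are themselves made from TOP mRNAs, whose 5′ end begins with a C and a run of pyrimidines and whose translation depends on mTOR.

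Of the 64 genes, 62 had enough counts to be tested, and 29 rose and 27 fell in BMSCs-OE-FNDC5 at an adjusted p under 0.05. Rises made up 36.9% of the 12104 genes tested and falls 38.8%, so most of the table moved and the calls among the factors are read against these shares. With an absolute log2FC over 1 as well, 5 rose (Eef1g, Eef2, Eif2b2, Eif4ebp1 and Eif5a) and 9 fell (Eif4g2, Eif2ak2, Eif4a2, Eif1a, Eif5a2, Eif3j, Eif3a, Eif5b and Eif2ak4), against 9.84% and 17.5% of all genes tested. The 6 genes that did not pass were Eef2kmt, Eif1b, Eif3h, Eef1akmt2, Eef1aknmt and Eif3el1. In 57 of the 62 genes the 3 libraries of a group did not overlap those of the other, a pattern shared by 78.3% of all genes tested. The median log2FC was 0.15, against −0.04 over all genes tested, but −0.02 against 0.03 in a fit that takes out how counts follow gene length in each library (the length-corrected fit, described after the complexes). When libraries were scaled by total count alone, the log2FC of the factors changed by a median of −0.37, the median of all genes stood at −0.41, and 20 factors rose and 33 fell, so changes named below hold relative to the scaling by trimmed mean of M values (TMM). In these bulk samples fewer cells of a type and less RNA per cell cannot be told apart.

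**Figure D1:**
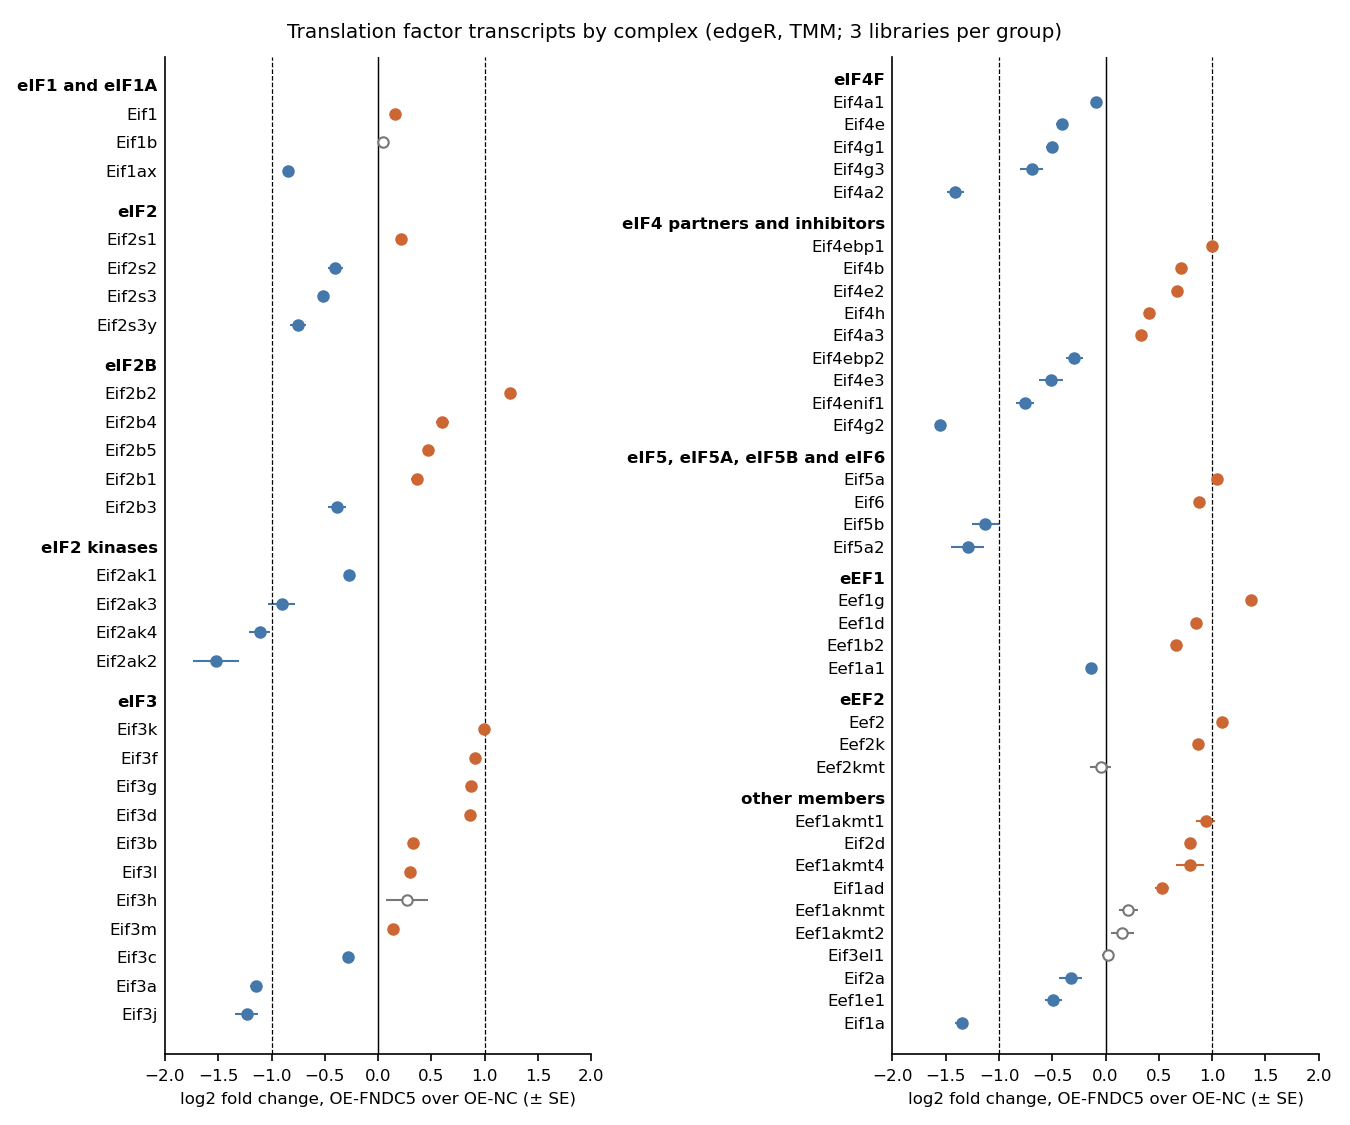
Log2FC (horizontal axis, above 0 where BMSCs-OE-FNDC5 was higher) of each of the 62 tested factor genes, grouped by complex, with bars of 1 SE. Orange points rose and blue points fell at an adjusted p under 0.05, open points did not pass, and dashed lines mark a log2FC of −1 and 1. All points of eIF4F and of the eIF2 kinases lie left of 0, while eEF1 and eIF2B lie mostly to the right.

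The complexes went different ways. In eEF1, 3 of 4 tested genes rose and 1 fell (median log2FC 0.75). In eEF2 with its kinase and methyltransferase, 2 of 3 rose (median 0.87), and in eIF2B 4 of 5 rose and 1 fell (median 0.47). All 5 genes of eIF4F fell (median −0.51), as did all 4 eIF2 kinases (median −1.01), and in eIF2 itself 3 of 4 fell (median −0.46). The complex eIF3 was divided, with 7 of 11 tested subunits up, 3 down and 1 not called (median 0.30). The mean log2 CPM over the genes of a complex is given as a description without a test, and it kept the groups apart in 9 of 11 sets. For eIF4F it was 6.69 to 6.71 in the control libraries and 6.07 to 6.09 in the BMSCs-OE-FNDC5 libraries, and for eEF1 it was 10.01 to 10.06 and 10.70 to 10.72. It overlapped between the groups for the partners of eIF4 (6.79 to 6.80 and 6.79 to 6.82) and for the group of eIF5A, eIF5B and eIF6 (6.17 to 6.32 and 6.02 to 6.19). The latter group holds no row for eIF5.

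Eef2 encodes eEF2, the GTPase that translocates the ribosome. It (chromosome 7, 11401501 to 11406771 in the table, whose rat build is not named) stood at 6656, 6648 and 6497 TMM-scaled CPM in BMSCs-OE-NC and at 13990, 14197 and 14016 CPM in BMSCs-OE-FNDC5. All 3 BMSCs-OE-FNDC5 libraries lay far above the control range. The means were 6600 ± 89.9 and 14067 ± 113 CPM (SD, n = 3), a log2FC of 1.09 (standard error, SE, 0.01, adjusted p = 3.8e-13, edgeR). Eef2k, the kinase that phosphorylates and inactivates eEF2, rose with it, from 46.7, 49.6 and 46.2 CPM to 85.3, 88.3 and 86.3 CPM (log2FC 0.87, SE 0.04). Eef2kmt, which methylates a lysine of eEF2, had means of 12.9 ± 0.684 and 12.5 ± 0.334 CPM (SD, n = 3), and its groups overlapped.

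The eEF1 subunits did not move together. Eef1a1, the tRNA carrier and the most abundant factor transcript of the control cells, stood at 7322, 7140 and 7005 CPM in BMSCs-OE-NC and at 6482, 6509 and 6514 CPM in BMSCs-OE-FNDC5. The groups did not overlap, with a log2FC of −0.14 (SE 0.02, adjusted p = 1.6e-05, edgeR), which became −0.42 in the length-corrected fit and −0.51 with scaling by total count. Eef1g, a subunit of the exchange factor eEF1B, went from 1910, 1866 and 1895 CPM to 4880, 4797 and 4927 CPM. This was the largest rise of the 62 genes in this fit, with a log2FC of 1.37 (SE 0.02, adjusted p = 4.5e-13, edgeR). In the length-corrected fit it was 1.08, below Eef2k (1.51), Eif2b2 (1.33), Eef2 (1.32) and Eif4b (1.20). The other eEF1B subunits also rose, Eef1d by a log2FC of 0.85 and Eef1b2 by 0.66 (0.23 in the length-corrected fit), so the exchange subunits and the carrier differed in direction. Eef1a2, the carrier of muscle and neurons, was at 1, 2 and 0 counts and at 0, 0 and 7 counts and was not tested.

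Together Eef1a1 and Eef2 made up 53.9% to 56.5% of the counts of the 64 genes in each library. The whole set took 2.75% to 2.83% of all counts in the control libraries and 3.32% to 3.35% in the BMSCs-OE-FNDC5 libraries. Per gene length (FPKM), the order of the leading factors changed at the top. In BMSCs-OE-NC it ran Eef1a1 (5065 ± 123 FPKM, SD, n = 3), Eef2 (2225 ± 36.2), Eef1g (1332 ± 15.4), Eif5a (891 ± 24.8) and Eif3f (464 ± 8.81). In BMSCs-OE-FNDC5, Eef2 (4826 ± 39.7 FPKM) stood above Eef1a1 (4685 ± 16.9), followed by Eef1g (3492 ± 48.5), Eif5a (1869 ± 21.4) and Eif3f (884 ± 18.6). None of these neighbours overlapped in their SD. The ratio of Eef2 to Eef1a1 in FPKM was 0.433 to 0.443 in the control libraries and 1.025 to 1.039 in the BMSCs-OE-FNDC5 libraries.

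**Figure D2:**
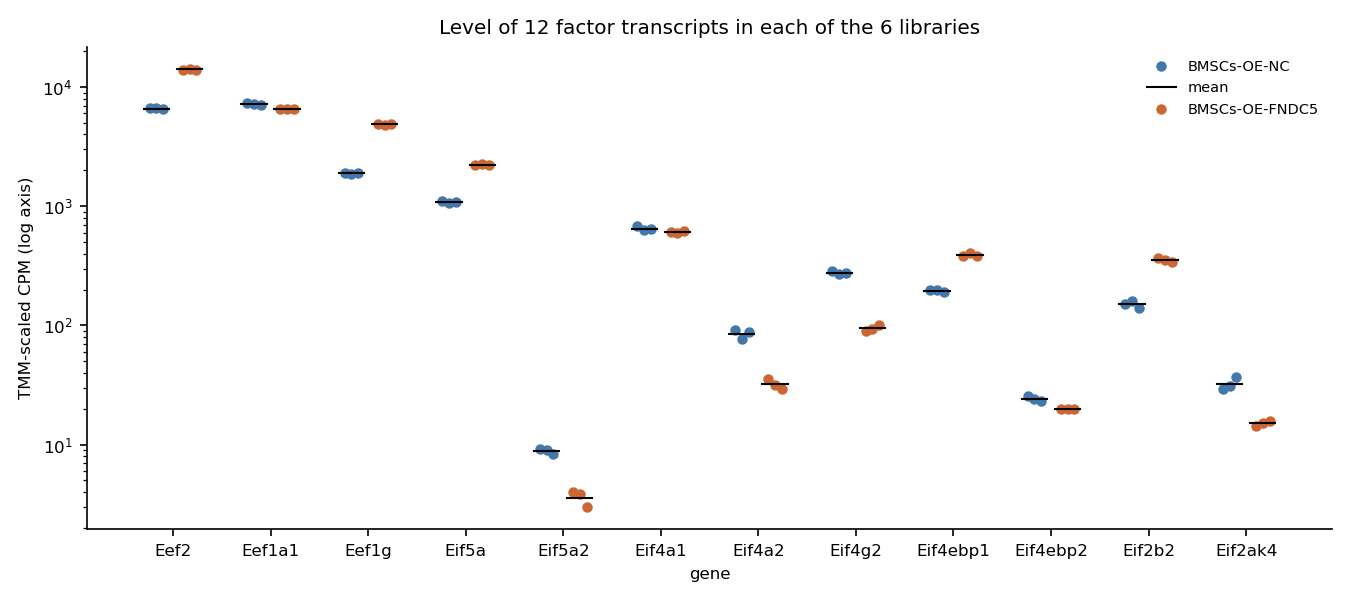
Level of 12 factor transcripts in each library, as TMM-scaled CPM on a log axis. Points are libraries (blue BMSCs-OE-NC, orange BMSCs-OE-FNDC5) and lines are group means. Eef2 and Eef1g stand higher in all 3 BMSCs-OE-FNDC5 libraries, Eef1a1 and Eif4a1 slightly lower, and Eif4a2, Eif4g2 and Eif5a2 clearly lower.

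Among the factors known to be made from TOP mRNAs (a list from textbook knowledge), 6 of 8 tested genes rose, 1 fell and 1 did not pass, with a median log2FC of 0.78. The risers were Eef1b2, Eef1d, Eef1g, Eef2, Eif3f and Eif4b, Eef1a1 fell, and Eif3h did not pass. RefSeq start sites of the rat build GRCr8 were found on the same chromosome for 56 of the 64 genes, 5 of them on this list. All 5 held, within 25 bases of the listed start, a C followed by at least 6 more pyrimidines. This definition was made after the sequences had been seen, and listed starts are not exact to the base. The tract was present in 37.5% of the 56 factor genes and in 22% of 27457 promoters, and among all matched genes tested it was in 21.9% of those that rose and in 21.5% of those that fell. The 5 stretches are shown with the tract in capitals, and they include the carrier that fell as well as risers. A TOP mRNA begins with its tract, whereas these tracts lay at differing distances from the listed start. Each stretch opens with 8 bases ahead of its tract, and positions are counted from the listed start. The stretches, not the tracts, begin at base 8 for Eef2, −28 for Eef1g, −6 for Eef1b2, −4 for Eif3f and −9 for Eef1a1. They do not show that the mRNAs begin with the tract.
Eef2, chr7:9189201-9189230, minus strand: tcggcgcgCTTCCCTgttcacctctgtatt
Eef1g, chr1:215289787-215289816, plus strand: cagccccaCCCCCTTTCTCTgcggaatcac
Eef1b2, chr9:72074085-72074114, plus strand: ggtcccggCCCTTTTTCTCCCTCagcgctg
Eif3f, chr1:172369058-172369087, plus strand: cgttctagCCTCTCTCTTTCTCggcaagat
Eef1a1, chr8:88225049-88225078, minus strand: tggacgttCTTTTTCgcaacgggtttgccg

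The factor eIF2 carries the initiator tRNA and is the point where stress kinases act. Its alpha subunit gene Eif2s1 rose slightly, from 78.0, 79.6 and 77.7 CPM to 90.2, 88.9 and 93.7 CPM (log2FC 0.21, SE 0.04, adjusted p = 0.00033, edgeR). That rise turned to −0.16 with scaling by total count and to −0.08 in the length-corrected fit. The beta subunit gene Eif2s2 fell by 0.40 on the log2 scale, and the gamma subunit genes of the X and Y chromosomes, Eif2s3 and Eif2s3y, fell by 0.52 and 0.75. In the length-corrected fit Eif2s2 stood at −0.67 and Eif2s3y at −0.70, and Eif2s3 at −0.02 did not pass (adjusted p = 0.64, edgeR). The X and Y copies are similar in sequence, so reads may have been divided between them.

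All 4 kinases of the eIF2 alpha subunit fell. Eif2ak2 (PKR, activated by double-stranded RNA) was rare, with 100, 99 and 110 counts in BMSCs-OE-NC and 34, 19 and 27 counts in BMSCs-OE-FNDC5, a log2FC of −1.52 (SE 0.22, adjusted p = 5.9e-05, edgeR). Eif2ak4 (GCN2, activated by uncharged tRNA) went from 29.5, 30.8 and 37.1 CPM to 14.3, 15.1 and 15.7 CPM, and Eif2ak3 (PERK, the kinase of the endoplasmic reticulum) from 21.2, 21.1 and 22.0 CPM to 10.7, 9.62 and 14.0 CPM. No library of these kinases crossed into the other group. Their log2FCs were −1.11 (SE 0.10) and −0.91 (SE 0.13), and Eif2ak1 (HRI, the heme-regulated kinase) moved least with −0.27 (SE 0.05). The kinase genes are long. In the length-corrected fit Eif2ak2 fell by 1.08 and Eif2ak3 by 0.36 on the log2 scale, and Eif2ak4 and Eif2ak1 had −0.12 and −0.01 and did not pass.

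The exchange factor eIF2B, which eIF2 phosphorylated on its alpha subunit inhibits, took the opposite direction. Eif2b2, the beta subunit, led with 150.5, 159.8 and 140.1 CPM in BMSCs-OE-NC and 365.6, 350.9 and 343.1 CPM in BMSCs-OE-FNDC5. Every BMSCs-OE-FNDC5 library was above every control library, with a log2FC of 1.24 (SE 0.05, adjusted p = 7.6e-10, edgeR). The delta and catalytic epsilon subunits, Eif2b4 and Eif2b5, rose by 0.60 and 0.47 on the log2 scale, and the alpha subunit Eif2b1 rose by 0.36. With scaling by total count, Eif2b5 stood at 0.10 and did not pass and Eif2b1 at −0.01. The gamma subunit Eif2b3 fell by 0.39 on the log2 scale, from a mean of 36.8 ± 4.71 to 28.2 ± 0.811 CPM (SD, n = 3).

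The scaffold eIF3 holds the small ribosomal subunit and the mRNA recruitment machinery together. Its subunits spread from a log2FC of −1.23 to 0.99. Eif3k rose from 222.5, 216.8 and 217.4 CPM to 430.2, 436.2 and 438.4 CPM (log2FC 0.99, SE 0.03, adjusted p = 6.1e-11, edgeR), just under the fold threshold. Eif3f (0.91), Eif3g (0.87) and Eif3d (0.87), the last a cap-binding subunit, rose by nearly as much, and Eif3b (0.33), Eif3l (0.30) and Eif3m (0.14) by less. In the other direction, Eif3a, the largest subunit of the core, went from 78.0, 69.7 and 73.8 CPM to 33.4, 33.9 and 32.5 CPM. Eif3j, a loosely bound subunit, went from 23.2, 19.1 and 20.4 CPM to 9.39, 8.25 and 9.01 CPM. The falls of Eif3a (log2FC −1.15, SE 0.05) and Eif3j (−1.23, SE 0.11) parted in the length-corrected fit, to −0.51 and −1.36, the table giving Eif3a 5125 bases and Eif3j 1811. Eif3c, another core subunit, fell by 0.28 on the log2 scale. In the length-corrected fit Eif3c (−0.02) and Eif3l (0.02) did not pass, and Eif3k (0.51), Eif3f (0.60) and Eif3g (0.47) rose by less.

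Scaling by total count turned the sign of 3 of these subunits, with Eif3b, Eif3l and Eif3m at −0.05, −0.08 and −0.23. Eif3m passed as a fall there (adjusted p = 0.0013, edgeR), while Eif3b and Eif3l did not pass. Eif3m stood at −0.17 in the length-corrected fit, and missed the threshold without BMSCs-OE-NC replicate 2 (0.12), BMSCs-OE-NC replicate 3 (0.09) or BMSCs-OE-FNDC5 replicate 1 (0.11). The row named Eif3h varied within its groups more than any other subunit, with 2443, 1875 and 2345 counts and 1466, 1686 and 2846 counts. It did not pass the test (log2FC 0.27, SE 0.20), but did without BMSCs-OE-FNDC5 replicate 1 (0.46, adjusted p = 0.036, edgeR), and stood at −0.06 without BMSCs-OE-FNDC5 replicate 3. The table places this row on chromosome 6, where RefSeq does not list Eif3h, and a near copy outside the name rule (LOC108348062) had 55 to 136 counts, so its value is uncertain. The row named Eif3el1, whose symbol RefSeq lists among the synonyms of Eif3e, stood at 120 ± 6.30 and 122 ± 9.28 CPM (SD, n = 3). Eif3i was not analysed here.

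**Figure D3:**
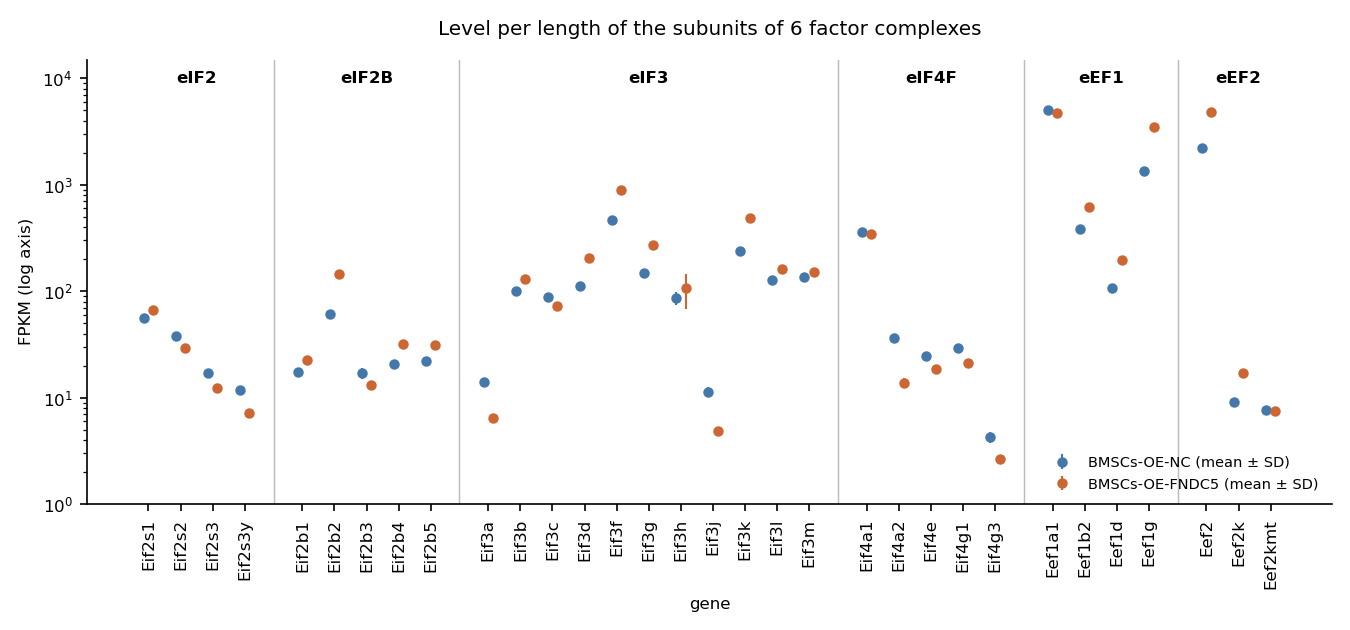
Level per gene length (FPKM, log axis) of the tested genes of eIF2, eIF2B, eIF3, eIF4F, eEF1 and eEF2, as the mean of 3 libraries with bars of 1 SD (blue BMSCs-OE-NC, orange BMSCs-OE-FNDC5). The subunits of eIF3 span from 11.3 FPKM (Eif3j) to 464 FPKM (Eif3f) in the controls and from 4.91 to 884 FPKM in BMSCs-OE-FNDC5, and Eif3h has the widest bars.

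The cap-binding complex eIF4F consists of the cap-binding protein eIF4E, the scaffold eIF4G and the helicase eIF4A, and the transcripts of all 5 genes were lower in BMSCs-OE-FNDC5. Eif4e itself went from 67.0, 59.4 and 64.6 CPM to 45.9, 47.5 and 50.4 CPM (log2FC −0.41, SE 0.06, adjusted p = 4.9e-05, edgeR). The scaffold genes Eif4g1 and Eif4g3 fell by 0.51 and 0.69 on the log2 scale. They encode long transcripts, and in the length-corrected fit they stood at 0.09 and 0.01 and did not pass. The helicase genes parted from each other. Eif4a2 went from 91.3, 76.7 and 87.99 CPM to 35.3, 31.8 and 29.2 CPM (log2FC −1.41, SE 0.08, adjusted p = 2.5e-08, edgeR). Eif4a1, which was more abundant, had means of 650 ± 27.2 and 611 ± 10.9 CPM (SD, n = 3). Its fall of 0.09 on the log2 scale (adjusted p = 0.024, edgeR) was lost with DESeq2 (adjusted p = 0.08), with RLE scaling, on FPKM values and without BMSCs-OE-NC replicate 1, BMSCs-OE-FNDC5 replicate 1 or BMSCs-OE-FNDC5 replicate 2 (−0.06, −0.09 and −0.07).

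The partners of eIF4 were divided in direction, also among genes of the same role. Eif4b and Eif4h, which stimulate the helicase, rose by 0.71 and 0.41 on the log2 scale, although Eif4h stood at 0.04 with scaling by total count. The inhibitor gene Eif4ebp1, whose product sequesters eIF4E when mTOR is inactive, rose from 198.3, 197.5 and 192.0 CPM to 385.5, 407.2 and 384.8 CPM, so that no library of the groups overlapped. Its log2FC was 1.00 (SE 0.03, adjusted p = 2.1e-10, edgeR), or 0.49 in the length-corrected fit. Its relative Eif4ebp2 fell, from a mean of 24.3 ± 1.17 to 19.8 ± 0.102 CPM (SD, n = 3). Eif4g2 (chromosome 1, 175883363 to 175895510), a relative of the scaffold that lacks the eIF4E-binding part and serves cap-independent initiation, had the largest fall of the 62 genes in this fit, ahead of Eif2ak2 by less than an SE. It went from 287.0, 267.5 and 273.8 CPM to 89.6, 92.8 and 100.4 CPM (log2FC −1.55, SE 0.05, adjusted p = 1.1e-10, edgeR), and fell by 0.93 on the log2 scale in the length-corrected fit. In that fit Eif1a (−1.47), Eif3j (−1.36), Eif4a2 (−1.35) and Eif2ak2 (−1.08) fell by more. Of the relatives of the cap-binding protein, Eif4e2 rose (0.67) and Eif4e3 fell (−0.51), Eif4enif1, which carries eIF4E into the nucleus, fell (−0.76), and Eif4a3, a helicase of the exon junction complex, rose (0.33). The rise of Eif4a3 was lost in the length-corrected fit (0.08) and stood at −0.04 with scaling by total count.

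The factors that act at start codon selection, subunit joining and later steps also diverged. Eif1, which guards start codon selection, rose slightly (0.16), but stood at −0.21 with scaling by total count and at −0.13 in the length-corrected fit. The genes of eIF1A, its partner on the small subunit, both fell, Eif1ax by 0.85 and Eif1a by 1.35 on the log2 scale. Eif1a went from 49.1, 47.9 and 49.5 CPM to 20.2, 18.6 and 18.5 CPM, and since the products are near copies the share of reads between the genes is uncertain. Eif5b, the GTPase that joins the ribosomal subunits, went from 19.1, 15.7 and 15.2 CPM to 7.41, 8.25 and 7.15 CPM (log2FC −1.13, SE 0.13). Eif6, which keeps the large subunit from joining early, rose by 0.88 on the log2 scale. For eIF5 the table has a row under another name (NEWGENE_619861) that the name rule did not take in. It fell by 1.25 on the log2 scale.

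Eif5a (chromosome 10, 56527085 to 56531483) encodes the hypusine-bearing factor that helps the ribosome past difficult peptide bonds. It had 1115, 1055 and 1083 CPM in BMSCs-OE-NC and 2229, 2265 and 2214 CPM in BMSCs-OE-FNDC5, with a wide gap between the groups. The log2FC was 1.04 (SE 0.02, adjusted p = 1.8e-11, edgeR), or 0.69 in the length-corrected fit. Its paralogue Eif5a2 was scarce, at 188, 179 and 164 counts and at 60, 56 and 45 counts, and fell by 1.30 on the log2 scale (SE 0.16, adjusted p = 1.5e-05, edgeR), or by 0.69 in the length-corrected fit. The enzymes that make hypusine rose with Eif5a, Dohh by a log2FC of 1.16 and Dhps by 0.94.

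Of the remaining genes, Eif2d, a factor for noncanonical initiation and recycling, rose (0.80) and Eif2a, a factor for alternative initiator tRNA delivery, fell (−0.33), the latter missing the threshold without BMSCs-OE-NC replicate 2 (−0.30) or BMSCs-OE-FNDC5 replicate 3 (−0.24). The eEF1A lysine methyltransferase genes Eef1akmt1 (0.94) and Eef1akmt4 (0.79) rose, Eef1akmt2 (0.16) did not pass and Eef1akmt3 had 4 to 13 counts and was not tested. Eef1aknmt, which methylates both the N terminus and a lysine of eEF1A, stood at 0.21 (adjusted p = 0.052, edgeR) and passed with DESeq2 (adjusted p = 0.037), with RLE scaling (adjusted p = 0.031, edgeR), in the length-corrected fit (0.59) and without BMSCs-OE-FNDC5 replicate 1 (0.28). Eef1e1, a scaffold of the tRNA synthetase complex, fell by 0.49 and Eif1ad, an eIF1A-related protein, rose by 0.53 on the log2 scale.

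Ratios of related genes within a library do not depend on scaling, but the trend with gene length stays in them where the genes differ in length. They were compared by a two-sided exact permutation test of the libraries, for which 3 against 3 cannot go below p = 0.1. The log2 ratio of Eif5a to Eif5a2 was 6.91, 6.88 and 7.03 in BMSCs-OE-NC and 9.12, 9.20 and 9.52 in BMSCs-OE-FNDC5. No library crossed over, and the means differed by 2.34 (exact permutation p = 0.1, adjusted over 6 pairs 0.2). The ratio of Eif4a1 to Eif4a2 differed by 1.32 and that of Eif4ebp1 to Eif4ebp2 by 1.29, each with the same p and no overlap. In the length-corrected fit Eif5a and Eif5a2 (1197 and 4871 bases) had log2FCs of 0.69 and −0.69. Eif4ebp1 and Eif4ebp2 (831 and 1749 bases) had 0.49 and −0.445, and Eif4a1 and Eif4a2 (1770 and 2319 bases) −0.23 and −1.35. The ratios of Eif1 to Eif1b and of Eif4g1 to Eif4g3 differed by 0.11 (exact permutation p = 0.2) and 0.19 (exact permutation p = 0.3). The ratio of Eef1a1 to Eef1a2 cannot be read, since Eef1a2 was at or near 0.

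**Figure D4:**
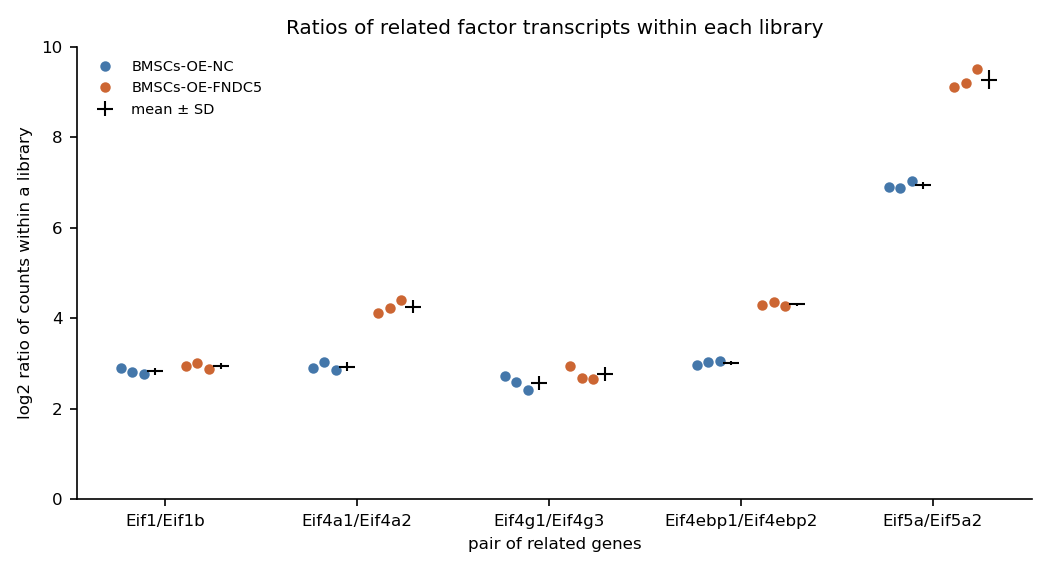
Log2 ratio of the counts of related genes within each library (vertical axis), with points for libraries (blue BMSCs-OE-NC, orange BMSCs-OE-FNDC5) and crosses for the mean ± SD of 3. Eif4a1 to Eif4a2, Eif4ebp1 to Eif4ebp2 and Eif5a to Eif5a2 separate the groups, by 1.32, 1.29 and 2.34, whereas Eif1 to Eif1b and Eif4g1 to Eif4g3 lie close together. The trend with gene length is not removed from these ratios.

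The start regions of the helicase and eIF5A pairs are shown because these paralogues moved apart. They are the 250 bases before the RefSeq start in GRCr8, with GGGCGG or its complement CCGCCC (the core of the GC box bound by Sp1) and CACGTG (the E-box bound by Myc and related factors) in capitals. A match that overlaps the match before it is left in lower case.
Eif5a, chr10:55143222-55143471, minus strand: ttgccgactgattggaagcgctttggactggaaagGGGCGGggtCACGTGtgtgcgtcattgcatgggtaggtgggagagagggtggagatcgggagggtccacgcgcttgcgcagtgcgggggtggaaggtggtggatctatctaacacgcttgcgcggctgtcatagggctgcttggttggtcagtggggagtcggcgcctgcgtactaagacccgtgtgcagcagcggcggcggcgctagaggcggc
Eif5a2, chr2:113657584-113657833, plus strand: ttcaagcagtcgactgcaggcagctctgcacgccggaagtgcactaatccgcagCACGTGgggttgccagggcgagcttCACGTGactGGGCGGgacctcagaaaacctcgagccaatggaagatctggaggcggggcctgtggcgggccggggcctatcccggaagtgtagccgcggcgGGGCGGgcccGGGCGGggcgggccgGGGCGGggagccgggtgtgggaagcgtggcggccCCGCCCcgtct
Eif4a1, chr10:54888603-54888852, minus strand: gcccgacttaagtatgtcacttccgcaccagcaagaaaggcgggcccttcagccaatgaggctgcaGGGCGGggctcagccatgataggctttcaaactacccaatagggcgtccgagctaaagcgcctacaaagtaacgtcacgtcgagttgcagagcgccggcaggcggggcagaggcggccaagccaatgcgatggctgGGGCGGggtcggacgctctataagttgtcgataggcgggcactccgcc
Eif4a2, chr11:91275324-91275573, minus strand: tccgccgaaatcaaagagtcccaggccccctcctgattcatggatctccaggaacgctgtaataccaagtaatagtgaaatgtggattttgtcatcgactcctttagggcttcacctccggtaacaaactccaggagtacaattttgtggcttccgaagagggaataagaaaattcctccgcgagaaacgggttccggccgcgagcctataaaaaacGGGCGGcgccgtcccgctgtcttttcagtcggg

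All 4 regions hold a GC box, and both eIF5A genes hold an E-box, so within each pair the same kinds of motif were present. The number of matches differed within each pair. Over windows from 250 bases before to 50 after the start, a GC box on either strand was found in 39 of 56 factor genes (69.6%), in 64.8% of 8523 matched genes tested and in 34.9% of all 27457 promoters. It was present in 15 of 26 factors that rose (57.7%) and in 21 of 26 that fell (80.8%), whereas among all matched genes tested it was in 66.2% of those that rose and in 65.6% of those that fell. The E-box, which reads alike on both strands, was in 12 of 56 factor genes (21.4%), in 9.74% of matched genes tested and in 6.65% of all promoters. Such matches describe letters only.

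Gene length went along with the direction of change, in the factors as in the whole table. Over the 62 factors the Spearman correlation of log2FC with gene length was −0.49, and over all 12104 genes it was −0.44, as a description across genes of the same libraries. Factors that rose had a median length of 1566 bases and factors that fell 3006. From the shortest to the longest of 8 equal bins of all genes, the median log2FC went from 0.65 to −0.84. With this trend removed from each library (the length-corrected fit), 25 factors rose and 25 fell, and 35 of the 56 called log2FC values moved by over 1.5 times. The median of eIF4F became −0.23 with 3 of 5 genes down, that of the eIF2 kinases −0.24 with 2 of 4 down, that of eIF2 −0.37 with 2 of 4 down, and that of eIF3 0.02 with 5 up and 3 down. The medians of eEF1 (0.52), eEF2 with its enzymes (1.32) and eIF2B (0.49) stayed above 0. The part of gene length in these changes was not tested.

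**Figure D5:**
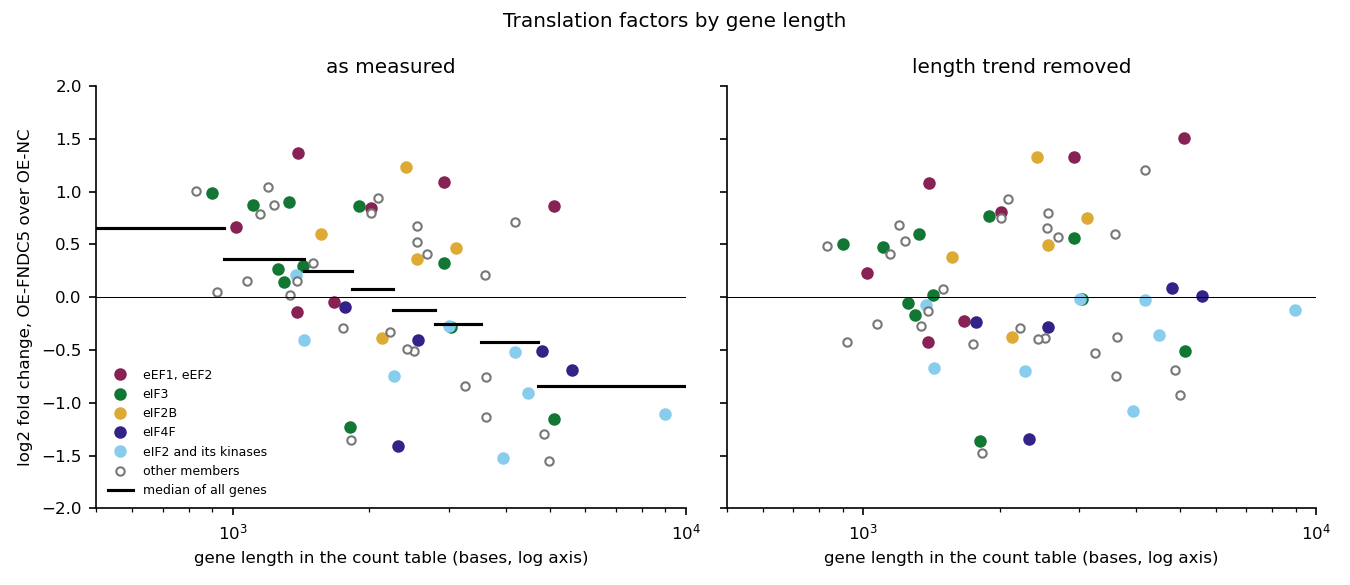
Log2FC (above 0 where BMSCs-OE-FNDC5 was higher) of the 62 tested factors against gene length (bases, log axis), as measured (left) and with the trend with gene length removed (right). Points are genes, coloured by complex, and black lines are medians of all tested genes in 8 length bins, from 0.65 in the shortest to −0.84 in the longest. On the right, Eef2, Eef2k, Eif2b2, Eif4b and Eef1g lie above 1.

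Other genes of the pathway were taken from fixed lists, and their counts are read against 36.9% up and 38.8% down among all genes tested. Of 5 termination and recycling genes, 2 rose and 3 fell. Gspt2, a release factor GTPase, fell by 1.27, and Etf1, the factor that reads stop codons, by 1.02 on the log2 scale, while the rescue factor gene Pelo rose (1.17). Of 9 poly(A)- and cap-binding partners, 2 rose, 5 fell and 2 did not pass. The largest of these changes were in Paip1 (−0.77), which binds the poly(A)-binding protein, Pdcd4 (−0.71), an inhibitor of eIF4A, and Larp1 (−0.54), a repressor of TOP mRNAs. Of 5 partners of eIF2 signalling, 2 rose and 3 fell, led by Impact (−1.52), an inhibitor of GCN2 activation, Nck1 (−1.25), an adaptor, and Ppp1r15b (−0.93), which recruits the eIF2 alpha phosphatase. Of 4 genes for small subunit recruitment and hypusine, 3 rose, namely Dohh and Dhps as above and Mcts1 (0.36). Of 8 mitochondrial translation factors, 3 rose, 3 fell and 2 did not pass, with Mtrf1 at −1.002, Mtif2 at −0.83 and Tsfm at 0.76. Counts per library were low for Mtrf1 (20 to 91), Mtif2 (24 to 74) and Gspt2 (19 to 117). In the length-corrected fit Ppp1r15b (−0.26), Larp1 (−0.24) and Tsfm (0.37) moved by less, and Mcts1 (0.08) did not pass. The other genes named in this paragraph kept their call there.

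Rows of near copies can take or lend reads to their parent gene. Of 7 tested rows outside the name rule whose description names a translation factor, 1 rose, 1 fell and 5 did not pass. The row that fell was the eIF5 row given above, which stands for the gene itself and not for a copy. The rows named here were chosen after their values had been seen. The Eef1a1-like row LOC100360413 stood at 61.8 ± 2.55 and 61.8 ± 1.36 CPM (SD, n = 3), against 7156 and 6502 CPM for Eef1a1. The Eif4g1-like row LOC100912571 varied most, with 20, 42 and 29 counts and 13, 78 and 96 counts, and it rose by the test although its groups overlapped.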

How the data were processed

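RNA-seq of 6 libraries was analysed, grouped by their titles into BMSCs-OE-FNDC5 (3) and BMSCs-OE-NC (3). The authors deposited raw gene counts and FPKM values. Their notes name HTSeq 0.6.0, HISAT2 2.1.0, Bowtie2 2.2.3, TopHat2, CASAVA and DESeq2, with neither steps nor a strand setting, and the mouse build mm10, although 32883 identifiers are rat and 0 mouse. Each deposited FPKM value equalled the count over gene length and a library constant.

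The factors and gene lists were chosen with earlier results of these data known, from gene names and textbook knowledge. Every factor may be named, with up to 3 genes of each pathway list by size of change. Counts of all genes were fitted in R 4.3.3 with edgeR 4.0.16 (filterByExpr with a minimum count of 10 and a minimum total of 15, TMM, quasi-likelihood test, condition as the only term), with Benjamini-Hochberg adjustment over 12104 genes. The procedure was tested on simulated data in which few genes changed. Most genes moved in these libraries, so that test does not cover the scaling here. Replicate counts differed beyond sampling noise (chi-square per degree of freedom 3.85 to 7.95 within groups). Related genes were compared as log2 ratios with 0.5 counts added.

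Alternatives were DESeq2 1.42.0, RLE, upper-quartile or total-count scaling, no filter or at least 10 counts in every library, a replicate block, limma 3.58.1 on log2(FPKM + 1) and log2(FPKM + 0.1), an offset removing the trend with gene length (lowess, span 0.3), and each library left out. The deposited tables were used from counts onward, and reads were not reprocessed. One marker gene of the lists is not reported here. Sequences are RefSeq's, build GRCr8. Plots used matplotlib 3.10.9 under Python 3.11.15.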

Additional observations from a re-analysis of the deposited data

How the results depend on the processing

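The counts of 29 factors up and 27 down ranged from 20 to 30 up and from 25 to 33 down over the alternatives. With scaling by total count, 0 factors rose and 14 fell past both thresholds, against 5 and 9, and 12 signs turned: Eif1 (−0.212), Eif1b (−0.324), Eif2s1 (−0.157), Eif2b1 (−0.006), Eif3b (−0.045), Eif3l (−0.075), Eif3m (−0.225), Eif4a3 (−0.042), Eif3el1 (−0.345) and, past no threshold in either fit, Eif3h (−0.099), Eef1akmt2 (−0.212) and Eef1aknmt (−0.157 on the log2 scale). This scaling lowers every value by construction, since TMM factors lay between 1.134 and 1.14 in the control libraries and between 0.877 and 0.882 in the others. With upper-quartile scaling 2 factors rose past both thresholds, and the uncalled Eif1b and Eif3el1 turned (−0.059 and −0.080). With log2(FPKM + 1), 5 fell past both. With the length trend removed, 4 fell past both and 9 signs turned: Eif1 (−0.127), Eif1b (−0.427), Eif2s1 (−0.076), Eif3m (−0.171), Eif4g1 (0.089), Eif4g3 (0.009), Eif3el1 (−0.277) and the uncalled Eif3h (−0.059) and Eef1akmt2 (−0.254); the cause was not tested. When 10 counts were required throughout, Eif3el1 turned (−0.006), and no sign turned with DESeq2, with RLE, on FPKM values or without the filter. Leaving out 1 library gave 28 to 30 up and 26 or 27 down, and turned only the uncalled Eif3el1 (lowest −0.031) and Eif3h (−0.059). The 5 readable ratios within libraries kept their sign without each library. They also kept it with FPKM + 0.1 in place of counts, which is no separate check. An FPKM value here is the count over gene length and a library constant, so the difference between groups hardly can change.

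Same-numbered libraries did not deviate together (correlations 0.021, −0.014 and −0.007), so no pairing by number was seen. With 3 libraries per group this cannot show whether same-numbered libraries share a rat or a transduction. The replicate block gave 30 up and 27 down, with Eef1aknmt added (adjusted p = 0.043, edgeR). Depth limits Eif2ak2, Eif5a2 and Eef1akmt4, at under 200 counts per library, and leaves Eef1a2 and Eef1akmt3 untested.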
